A study of Mus musculus with 6 samples.

Results

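The genes of 10 enzymes that turn cholesterol into bile acids were followed in mouse primary hepatocytes given GW4064, a compound that activates FXR, the nuclear receptor for bile acids encoded by Nr1h4. They are Cyp7a1, Cyp8b1, Cyp27a1, Cyp7b1, Cyp39a1, Cyp2c70, Ch25h, Hsd3b7, Akr1d1 and Akr1c6. A gene was measured by a probe set that the platform annotation pairs with that symbol alone, and the brightest over the 6 arrays was kept for Ch25h, the only one of them with 2. All 10 of the 10 were found, among 22180 genes measured in this way.

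Of 6 arrays, 3 held RNA of hepatocytes treated with 2 µM GW4064 for 4 h, and 3 held RNA of hepatocytes given the solvent DMSO. All cells came from wild type adult male C57Bl/6 mice and were cultured without serum in William's medium, so they lacked the gut hormone signals that also act on these genes in the animal. The series describes 3 independent preparations, and it is not stated in the labels whether a sample number marks a preparation. Total RNA was measured on 1-colour Affymetrix arrays, whose values are log2 intensities. On bulk arrays, fewer cells of a type and less RNA per cell cannot be told apart.

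Bile acids are made from cholesterol in the liver by hydroxylating the sterol ring, changing its double bond and hydroxyl groups, and shortening the side chain. In the classical pathway Cyp7a1 acts first, on cholesterol itself. In the alternative pathway the side chain is hydroxylated first, giving oxysterols, and a second group of enzymes hydroxylates the ring. In mouse liver, FXR is known to raise Nr0b2, which encodes the repressor SHP, and to lower Cyp7a1 and Cyp8b1.

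Markers of the labelled cell type were read first. By DMSO means, all 9 measured hepatocyte markers lay above a yardstick for dim signal (described next), as did 56.9% of all genes. The lowest averaged 5.10 in GW4064 and 5.32 in DMSO arrays, and the highest, Alb, 12.82 and 12.85 (mean log2 intensity). Some markers of other liver cell types passed it too, so passing it does not identify the cells. Known FXR targets were read as a check of the treatment. Abcb11, the bile salt export pump gene, averaged 7.97 ± 0.17 in GW4064 and 4.88 ± 0.18 in DMSO arrays (SD, n = 3 each), and Nr0b2 averaged 6.89 ± 0.22 and 4.51 ± 0.06. Over all genes, limma's test at an adjusted p under 0.05 called 11 higher, which is 0.0496% of those tested, and 0 lower, which is 0%. With the sample number as a replicate block it called 18 in either direction (0.0812%), and at an unadjusted p under 0.05 there were 577 higher and 678 lower.

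The enzymes ran from clear signals to the array's dim end, with Cyp8b1 between. Probe sets differ in how brightly they bind, so an order of levels between genes is only a description. As a yardstick for dim signal, 1409 genes of smell and pheromone receptors (symbols beginning with Olfr, Vmn1r, Vmn2r or Taar) were used, which hepatocytes are not known to need. Their DMSO means had a median of 2.03 and a 95th percentile of 3.79, and 56.9% of all genes lay above that percentile. Not every gene of this class was dim, since Vmn1r233 averaged 11.29 in GW4064 and 11.21 in DMSO arrays. Of the 10 enzymes, 6 lay above the 95th percentile in DMSO and in GW4064, close to the share of all genes, and 4 lay below it. Cyp8b1 was the nearest to it of the 6 above, and its GW4064 replicate 2 was under it, at 3.70.

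**Figure D1:**
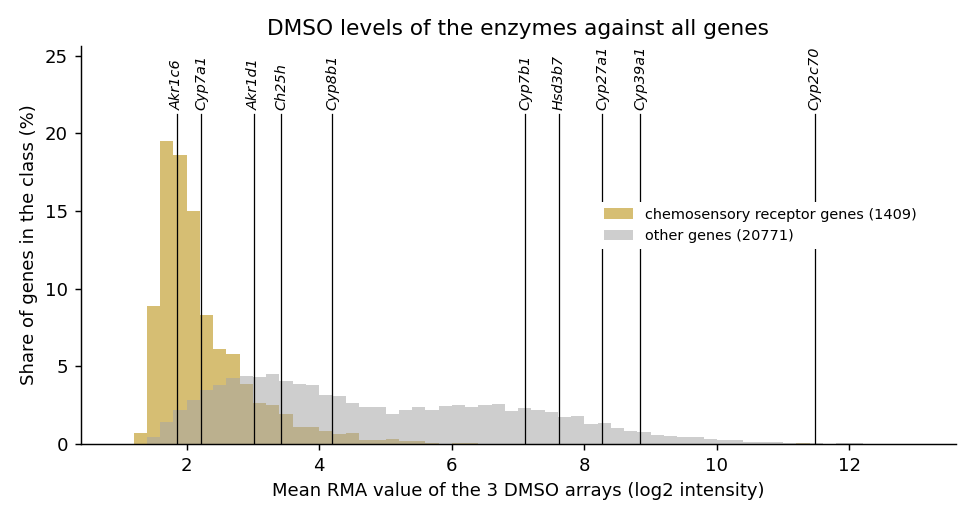
Histogram of the mean log2 intensity over the 3 DMSO arrays, as a percentage of the 1409 chemosensory receptor genes (gold) and of all other genes (grey), with a vertical line at each enzyme. Cyp7b1, Hsd3b7, Cyp27a1, Cyp39a1 and Cyp2c70 lie to the right, clear of the receptor genes' peak, whereas Akr1c6 and Cyp7a1 lie inside the peak of the receptor genes.

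Cyp2c70, the mouse enzyme that makes muricholic acids by hydroxylating the ring of a finished bile acid, was the brightest. It ranked 58 from the top of the 22180 genes in DMSO. Cyp39a1, which hydroxylates the ring of an oxysterol bearing its hydroxyl on the side chain, ranked 932. Cyp27a1, the mitochondrial enzyme that starts the alternative pathway and also oxidises the side chain in the classical one, ranked 1546. Hsd3b7, the dehydrogenase that acts on the ring-hydroxylated sterols of both pathways, ranked 2622, and Cyp7b1, the oxysterol ring hydroxylase of the alternative pathway, ranked 3764.

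Cyp8b1, which adds the hydroxyl group that makes cholic acid, sat in the middle at rank 11138, brighter than 96.9% of the receptor genes. Ch25h, which makes an oxysterol and is also known as an interferon-induced gene of macrophages, ranked 14191. Akr1d1, the reductase that removes the ring's double bond, ranked 16121. Cyp7a1 ranked 19776, and 512 of the receptor genes (36.3%) were brighter. Akr1c6, a mouse hydroxysteroid dehydrogenase, ranked 21212, and 66.1% of the receptor genes were brighter. Cyp7a1 and Akr1c6 lay close to the median receptor gene, where a decrease has little room to appear.

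Neighbours in this order had DMSO values that did not overlap, except Cyp7a1 and Akr1c6. The 3 DMSO values of Cyp7a1 were 1.92, 2.35 and 2.38, and those of Akr1c6 were 1.75, 1.85 and 1.94. Cyp2c70 stood between the 99.6th and 99.8th percentile of genes in GW4064 and in DMSO arrays. Cyp27a1 stood between the 92.1st and 93.4th in GW4064 and between the 92.6th and 93.2nd in DMSO arrays. The place of Akr1d1 was the 36.8th to 38.0th in GW4064 and the 22.0th to 30.5th in DMSO arrays.

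Upstream sequence is shown for 3 enzymes of unlike level, the brightest (Cyp2c70), the one in the middle (Cyp8b1) and the one with the largest difference between the groups (Akr1d1). RefSeq start sites of build GRCm38.p6 were available for 7 of the 10 genes, and the 250 bases before each start were used. Cyp7a1, Cyp7b1 and Cyp39a1 were not among the 7 and were not searched. Capitals mark matches, on either strand, to 5 letter strings, namely TATAAA of the TATA box, the nuclear receptor half-site AGGTCA, the HNF4A-type string CAAAGTCCA, the LRH-1-type string TCAAGGTCA, which contains AGGTCA, and the FXR-type inverted repeat AGGTCANTGACCT, which also contains it.
Cyp2c70, chr19:40187287-40187536, minus strand: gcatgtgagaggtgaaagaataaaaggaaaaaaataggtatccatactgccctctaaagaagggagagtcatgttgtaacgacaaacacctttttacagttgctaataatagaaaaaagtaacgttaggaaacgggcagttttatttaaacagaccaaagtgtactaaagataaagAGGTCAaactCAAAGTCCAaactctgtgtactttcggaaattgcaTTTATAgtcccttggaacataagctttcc
Cyp8b1, chr9:121916306-121916555, minus strand: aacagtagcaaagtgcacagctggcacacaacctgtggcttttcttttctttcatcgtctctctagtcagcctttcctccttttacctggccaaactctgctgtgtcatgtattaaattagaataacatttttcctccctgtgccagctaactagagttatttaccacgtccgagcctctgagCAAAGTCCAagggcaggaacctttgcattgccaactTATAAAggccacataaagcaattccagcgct
Akr1d1, chr6:37529923-37530172, plus strand: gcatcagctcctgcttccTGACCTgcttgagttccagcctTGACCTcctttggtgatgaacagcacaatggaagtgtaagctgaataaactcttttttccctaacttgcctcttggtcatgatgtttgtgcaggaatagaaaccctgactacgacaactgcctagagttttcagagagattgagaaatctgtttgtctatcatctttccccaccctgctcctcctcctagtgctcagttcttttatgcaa

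In the Cyp2c70 and Cyp8b1 windows, CAAAGTCCA and TATAAA lay at like distances from the start, but TATAAA lay on unlike strands. CAAAGTCCA began 64 bases before the start in Cyp2c70 and 67 before it in Cyp8b1. TATAAA began 31 bases before the start in Cyp8b1, on the gene's own strand. In Cyp2c70 it was on the opposite strand, read as TTTATA and beginning 29 bases before the start. CAAAGTCCA occurs in 0.384% of the 32851 RefSeq windows of the same length and TATAAA in 12.4%. Akr1d1 held AGGTCA on the opposite strand at 2 places, beginning 232 and 210 bases before the start, and Cyp2c70 held it once. That half-site occurs in 14.0% of windows. TCAAGGTCA (0.387% of windows) and AGGTCANTGACCT (0.00609%) matched in none of the 7. The windows of Cyp27a1 and Hsd3b7 held none of the 5 strings, and those of Ch25h and Akr1c6 held TATAAA alone. A match here is a description of the letters and not of binding. Only exact letters within these windows were searched, so a string without a match does not mean that a looser form of the site is absent.

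With GW4064, none of the 10 enzymes passed limma's test over all genes, with or without the replicate block, against 0.0496% of all genes without the block. At an unadjusted p under 0.05, 1 was higher (Akr1d1) and 0 were lower, against 2.60% and 3.06% of all genes. Of the 10 changes, 7 were below 0, against 55.4% of all genes. The median change was -0.02 over the 10 and -0.02 over all genes. The smallest two-sided p that an exact permutation of 3 and 3 arrays allows is 0.1.

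**Figure D2:**
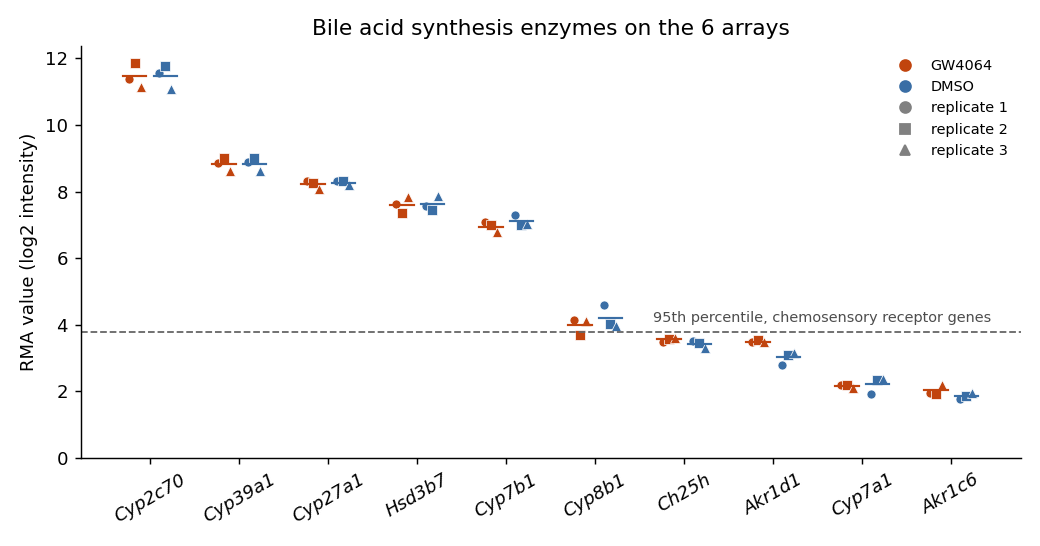
Log2 intensity of each enzyme on the 3 GW4064 arrays (orange) and the 3 DMSO arrays (blue), with marker shapes for replicate numbers, a short line for each group mean, and a dashed line at the 95th percentile of the receptor genes in DMSO (3.79). The groups overlap for every enzyme except Akr1d1, where both lie under the dashed line.

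Cyp7a1, the rate-limiting enzyme of the classical pathway, measured 2.19, 2.19 and 2.08 in GW4064 replicates 1, 2 and 3, against 1.92, 2.35 and 2.38 in DMSO. The GW4064 values lay inside the DMSO range, and all 6 were dim. The same-numbered differences were 0.26, -0.16 and -0.30, so their signs were mixed. The change of -0.06 on the log2 scale corresponds to a fold of 0.958 with a 95% interval of 0.779 to 1.18 (limma adjusted p = 0.998). At this level that interval describes the probe set's signal, of which the share that comes from Cyp7a1 transcripts was not measured.

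Cyp8b1 measured 4.15, 3.70 and 4.12 in GW4064 arrays, against 4.60, 4.02 and 3.96 in DMSO arrays. The differences were -0.45 and -0.32 in pairs 1 and 2, and 0.16 in pair 3. The highest value of all 6 was DMSO replicate 1, and without that array the change was 0.00025, against -0.20 with it. The fold was 0.869 with a 95% interval of 0.648 to 1.16 (limma adjusted p = 0.998). A decrease to under 0.648 of the DMSO signal lies outside that interval, and a smaller one does not.

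Hsd3b7 measured 7.62, 7.37 and 7.84 in GW4064 arrays, against 7.55, 7.44 and 7.86 in DMSO arrays. The values of each pair lay within 0.07 of each other, with differences of 0.063, -0.070 and -0.016. The 95% interval of its fold of 0.995 was 0.787 to 1.26, or 0.871 to 1.14 when the sample number was a block.

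In the alternative pathway, Cyp27a1 measured 8.33, 8.27 and 8.09 in GW4064 arrays, against 8.31, 8.31 and 8.21 in DMSO arrays. The lowest value of both groups was replicate 3. Its fold of 0.969 had the narrowest interval among the bright enzymes without the block, 0.829 to 1.13 (limma adjusted p = 0.998). Cyp7b1 measured 7.08, 6.98 and 6.77 in GW4064 arrays, against 7.30, 6.99 and 7.03 in DMSO arrays. The pair differences of -0.22, -0.01 and -0.26 were all below 0, although the groups overlapped. Differences below 0 in all 3 pairs occurred in 18.6% of all genes. The change was -0.16 with an SE of 0.12, a fold of 0.894 with an interval of 0.738 to 1.08 (limma adjusted p = 0.977).

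Cyp39a1 measured 8.84, 9.00 and 8.62 in GW4064 arrays, against 8.88, 9.02 and 8.63 in DMSO arrays. The same-numbered differences of -0.032, -0.016 and -0.009 were the most alike among the 10 enzymes, with an SD of 0.011, and were below 0 in every pair. The interval of its fold of 0.987 was 0.798 to 1.22, or 0.868 to 1.12 with the block. Ch25h measured 3.49, 3.58 and 3.61 in GW4064 arrays, against 3.52, 3.45 and 3.31 in DMSO arrays, for a change of 0.14 with an SE of 0.10. Its second, dimmer probe set measured 3.17, 3.25 and 3.08 in GW4064 arrays, against 3.17, 3.05 and 3.27 in DMSO arrays, and both sets lay under the yardstick.

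Of the enzymes that finish the ring, Cyp2c70 measured 11.39, 11.87 and 11.13 in GW4064 arrays, against 11.57, 11.77 and 11.10 in DMSO arrays. Its pair differences were -0.17, 0.10 and 0.03. The fold was 0.991 with an interval of 0.708 to 1.39 without the block and 0.854 to 1.15 with it.

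Akr1d1 was the only one of the 10 whose groups did not overlap. It measured 3.47, 3.53 and 3.47 in GW4064 arrays, against 2.80, 3.10 and 3.16 in DMSO arrays. Every GW4064 value was above every DMSO value, a pattern that 4.58% of all genes showed in the same direction. The differences were 0.67, 0.43 and 0.31 in pairs 1, 2 and 3, and the GW4064 arrays were the more alike, with an SD of 0.03 against 0.19 in DMSO. The fold was 1.39 with a 95% interval of 1.16 to 1.66, the unadjusted p was 0.00252 and the limma adjusted p was 0.534 (0.265 with the block), so it was not called. In absolute size its log2 change of 0.47 was larger than that of 99.1% of all genes. Both group means, 3.49 and 3.02, lay under the yardstick of 3.79, and 13.0% of the receptor genes were brighter in DMSO.

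Akr1c6 measured 1.95, 1.92 and 2.20 in GW4064 arrays, against 1.75, 1.85 and 1.94 in DMSO arrays. The differences were above 0 in all 3 pairs, at 0.20, 0.06 and 0.26, as in 12.6% of all genes. The groups overlapped, and the change of 0.18 with an SE of 0.11 was not called (limma adjusted p = 0.961).

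**Figure D3:**
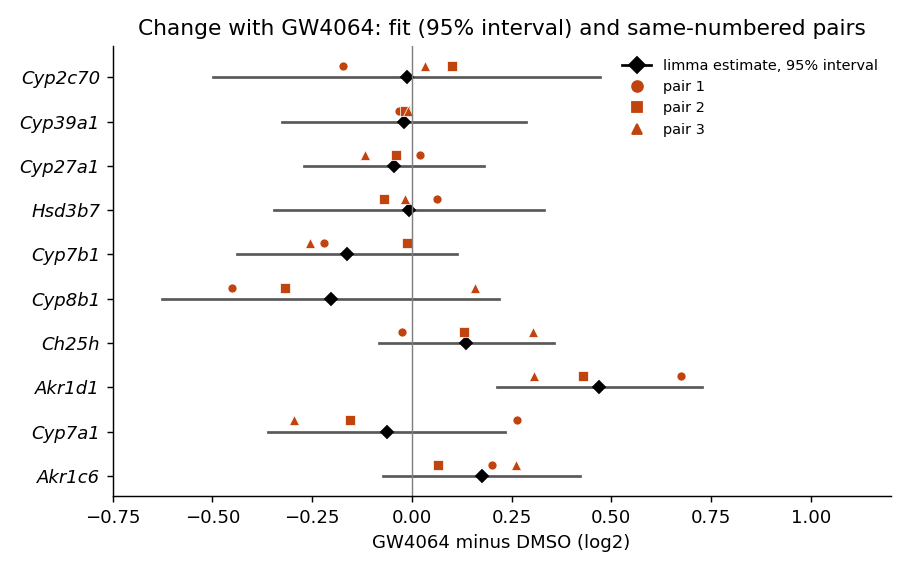
Log2 change of each enzyme, GW4064 minus DMSO, with the limma estimate as a black diamond, its 95% interval without a block as a line, and the same-numbered pairs as orange markers. The interval of Akr1d1 (0.21 to 0.73) is the only one of the 10 that leaves out 0, before adjustment over all genes.

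The smallest change that passed over all genes was 0.87 on the log2 scale. The unblocked 95% intervals of the 10 enzymes ran from -0.63 for Cyp8b1 at the lower end to 0.73 for Akr1d1 at the upper end. A change as large as the smallest one called therefore lay outside the interval of each enzyme's signal, and smaller changes of some enzymes lay inside it. For Cyp7a1, Akr1c6, Akr1d1 and Ch25h, which lay under the yardstick, the interval describes the probe set's signal and sets no bound on the transcript.

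For each of the 5 brightest enzymes, the span over sample numbers within a group was wider than the difference between the group means. Cyp2c70 spanned 0.74 on the log2 scale over the GW4064 arrays and 0.68 over the DMSO arrays, highest in replicate 2 and lowest in replicate 3 of both groups. Cyp39a1 had the same order, with spans of 0.38 and 0.39. Hsd3b7 had the reverse order in both groups, with spans of 0.47 and 0.42. Over the 6 arrays Pearson's r was 0.98 between Cyp2c70 and Cyp39a1 and -0.99 between Cyp2c70 and Hsd3b7. These 6 arrays hold 3 sample numbers, so the points are not independent and no p is given.

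**Figure D4:**
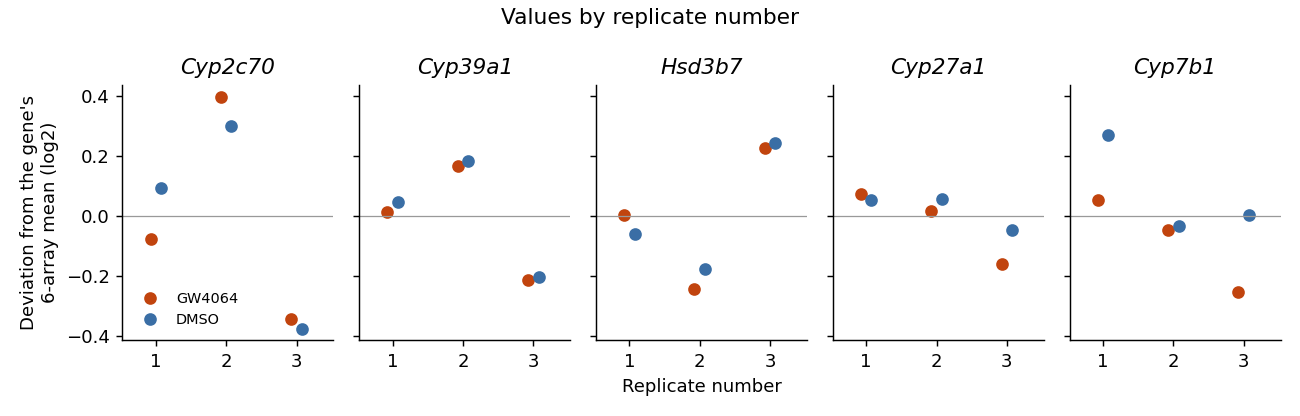
Deviation of each array from the gene's 6-array mean (log2), by replicate number, for the 5 brightest enzymes, with GW4064 in orange and DMSO in blue. Same-numbered arrays sit together for Cyp39a1, Cyp2c70 and Hsd3b7, with Hsd3b7 as a mirror image, and less so for Cyp7b1.

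The genes whose values over the 6 arrays were most like those of each enzyme were sought among 12663 other genes whose mean over all 6 arrays lay above the receptor genes' 95th percentile of such means. Nearest to Cyp39a1 were Ckap5 (r = 0.9988) and Prc1 (0.9977), whose products bind spindle microtubules. Prc1 measured 6.72, 7.14 and 6.20 in GW4064 arrays, against 6.82, 7.24 and 6.19 in DMSO arrays, again highest in replicate 2. Nearest to Cyp2c70 were Ttk (0.994), a mitotic checkpoint kinase gene, and Snrpa1 (0.992), a splicing factor gene. Nearest to Hsd3b7 were Polr1c (0.9956), a subunit of RNA polymerases, and Map2k3os (0.9953), an antisense transcript. Cyp27a1 was nearest to Scarb2 (0.988), a lysosomal membrane protein gene, and Faah (0.987), a fatty acid amide hydrolase gene. Cyp7b1 was nearest to Tbcel (0.997) and Crnkl1 (0.994), and Cyp8b1 to Ecel1 (0.992) and Vash2 (0.985). No p is given for these values, for the same reason as above. The genes are also the top 2 of 12663 for each enzyme, so a high r is in part a product of the search. A shared function was not tested.

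The steps after the ring lie in the peroxisome, where the side chain is shortened and the acid is joined to taurine or glycine. Of 13 listed genes 12 were measured, 0 were called in either direction, 9 were below 0, and the median change was -0.04. Smallest in p were Slc27a2, a very-long-chain acyl-CoA synthetase gene, at -0.22 (SE 0.12), Amacr, the racemase that readies the side chain, at 0.31 (SE 0.17), and Scp2, the peroxisomal thiolase, at -0.23 (SE 0.15). Amacr was higher in all 3 pairs, by 0.28, 0.39 and 0.27, as were 12.6% of all genes. Scp2 was lower in all 3, as were 18.6%. With the block the SE was 0.08 for Amacr (limma adjusted p = 0.352) and 0.09 for Scp2 (limma adjusted p = 0.509), and 0 of the list were called.

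Of the 5 FXR targets listed as a check 4 were measured and 3 were called higher, against 0.0496% of all genes. Besides Abcb11 and Nr0b2 this was Abcb4, the phospholipid exporter gene of bile, with 1.29 (SE 0.15, limma adjusted p = 0.0343), while Slc51a, a subunit of a basolateral bile acid exporter, had 0.14 (SE 0.10). Among the regulators of the pathway, 20 genes were listed and 18 measured, with 9 below 0 and a median of 0.00385. Of the 18, 1 was called higher and 0 lower, against 0.0496% and 0% of all genes. At an unadjusted limma p under 0.05, 4 were higher and 2 lower, against 2.60% and 3.06% of all genes. The gene called was Nr0b2, at 2.37 (SE 0.12, limma adjusted p = 1.17e-04). It encodes SHP, and it measured 6.68, 7.11 and 6.87 in GW4064 arrays, against 4.58, 4.49 and 4.46 in DMSO arrays. The receptor gene Nr1h4 had -0.72 (SE 0.09, limma adjusted p = 0.0535, or 0.0618 with the block and 0.0171 to 0.0682 over the other settings with all 6 arrays), and Mafg, which encodes a repressor of bile acid synthesis genes in mouse, had 0.58 (SE 0.10, limma adjusted p = 0.212). Nr5a2, the gene of the activator LRH-1, and Hnf4a, the gene of HNF4A, are named after their values were seen. Nr5a2 had -0.05 (SE 0.10). Hnf4a had 0.55 (SE 0.12, limma adjusted p = 0.393, or 0.151 with the block) and was not called. Its differences were 0.51, 0.65 and 0.49 in pairs 1, 2 and 3. The groups did not overlap for 4 of the 18 regulators in the higher direction, Hnf4a among them, and for 2 in the lower. Over all genes these shares were 4.58% and 6.19%. The Nr0b2 differences were 2.10, 2.62 and 2.41 in pairs 1, 2 and 3, where those of Cyp7a1 and Cyp8b1 had mixed signs. Cyp7a1, with a DMSO mean of 2.22, lay among the receptor genes, and Cyp8b1, with 4.19, lay near the yardstick of 3.79. Whether SHP acted on either gene was not tested.

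Cytochrome P450 enzymes need electron donors, and 3 of 6 listed donors were measured, with 0 called. Fdx1, the ferredoxin that serves mitochondrial P450 enzymes such as Cyp27a1, measured 7.64, 7.89 and 7.47 in GW4064 arrays, against 8.22, 8.13 and 7.89 in DMSO arrays. Every GW4064 value lay below every DMSO value, the closest by under 0.01, as for 6.19% of all genes in this direction, and the change of -0.42 (SE 0.13, unadjusted p = 0.0125) had a limma adjusted p of 0.762. Cyb5a had 0.12 (SE 0.10) and Cyb5r3 -0.05 (SE 0.09).

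Among genes of sterol supply, sterol export and other oxysterol enzymes, 16 of 19 were measured and 0 were called, with 7 below 0 and a median of 0.07. Abcg5 and Abcg8, which together export sterols into bile, had 0.47 (SE 0.13) and 0.29 (SE 0.10). Each was higher in every pair, as were 12.6% of all genes. For each, every GW4064 value also lay above every DMSO value, as for 4.58% of all genes. The limma adjusted p values of Abcg5 and Abcg8 were 0.641 and 0.770 (unadjusted 0.00512 and 0.0134). Scarb1, the receptor for high-density lipoprotein, had 0.12 (SE 0.10). Of the relatives of Akr1c6 and Hsd3b7, 13 of 16 were measured and 0 were called, with 7 below 0 and a median of -0.02. The smallest p belonged to Hsd3b6 at 0.31 (SE 0.11), Hsd3b1 at -0.26 (SE 0.13) and Hsd3b2 at 0.22 (SE 0.12), all dim, with DMSO means of 2.16, 2.07 and 2.82. Akr1c14, a steroid dehydrogenase gene close to Akr1c6 that is named after its values were seen, averaged 8.10 ± 0.61 in GW4064 and 8.26 ± 0.54 in DMSO arrays. Close relatives can share probe sequence, and how much their probe sets share was not tested.

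**Figure D5:**
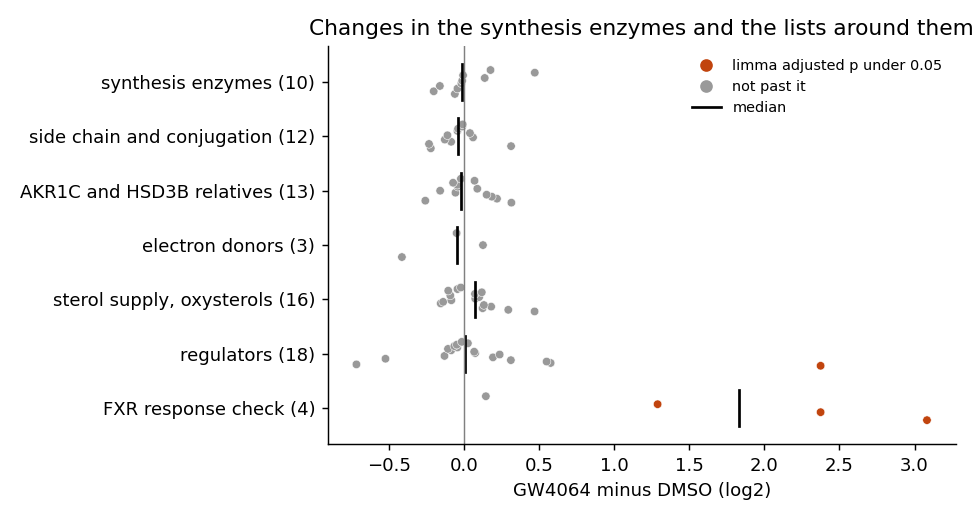
Log2 change, GW4064 minus DMSO, of each measured gene in the synthesis enzymes and in 6 lists around them, with the number of genes in brackets, a black bar at the median and orange points for genes past a limma adjusted p of 0.05. Orange points occur in the regulators (Nr0b2) and in the FXR response check (Abcb11, Nr0b2 and Abcb4).

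Markers of liver cell types were read beside these values. The 9 hepatocyte markers were all below 0, against 55.4% of all genes, and 0 were called. Their median change was -0.16, against -0.02 over all genes. Their mean level ran from 10.23 to 10.34 over GW4064 arrays and from 10.36 to 10.48 over DMSO arrays. These ranges of the list mean nearly met, and the groups overlapped for each of the 9 markers taken singly. The cause of the lower values was not tested. By DMSO means, 4 of 8 macrophage markers lay above the yardstick of 3.79, the highest being Cd68 at 9.42 in GW4064 and 9.39 in DMSO arrays. The Kupffer cell marker Clec4f, 1 of these 4, had 3.66 and 3.90. The mean of the 8 markers ran from 3.92 to 4.14 over GW4064 arrays and from 3.99 to 4.19 over DMSO arrays. Of 6 endothelial markers 5 lay above it (highest Cdh5, 6.30 and 6.19), of 6 stellate cell markers 3 (highest Acta2, 6.39 and 6.39) and of 4 bile duct markers 3 (highest Sox9, 7.76 and 7.31). Below 0 were 5 of the macrophage, 3 of the endothelial, 1 of the stellate and 0 of the bile duct markers, against 55.4% of all genes. Sox9 had 0.45 (SE 0.17). None of these genes was called. Their part in the values of Ch25h, Akr1d1 or the other enzymes was not tested.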

How the data were processed

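Per the submitters' processing notes, the authors' tools were RMA and Partek, without versions. The deposited table holds 1 column of log2 intensity per array. The values ran from 0.936 to 13.07, as RMA output on a log2 scale does, although no source names the base. Genome build and annotation release are not given in the sources used here. Of 41345 probe sets, 23521 carry 1 gene symbol, 1814 several and 16010 none. For 1082 genes with several such sets the one with the highest mean was kept, which left 22180 genes. Each array has a column of its own, and no arrays were identical.

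Levels were tested with limma 3.58.1 (lmFit, eBayes; R 4.3.3), GW4064 minus DMSO, 3 arrays each, with Benjamini-Hochberg adjustment over all genes, no filter and no block. Intervals are 95% from moderated errors. The number of arrays limits the precision. P-values measure the spread between these samples, which no label ties to single preparations. The yardstick is the 95th percentile of DMSO means of 1409 chemosensory receptor genes.

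Deviations of same-numbered arrays from their group means correlated at 0.26, 0.34 and 0.45 for numbers 1, 2 and 3, so the numbers were taken to pair the arrays. The numbers come from the titles. The alternatives were the replicate block, other normalizations, filters, probe-set and variance choices, and arrays or pairs left out. Named genes are the 10 enzymes, the 3 genes of smallest p per list, Abcb11, Nr0b2, the highest marker of each list and the 2 genes most like each bright enzyme. Vmn1r233, Nr5a2, Hnf4a, Akr1c14 and Clec4f were named after their values were seen. Of 113 other listed symbols 98 were measured. The members and lists were chosen with earlier results of these data known.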

Additional observations from a re-analysis of the deposited data

How the results depend on the processing

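No enzyme was called in any of the 151 results obtained for the 10 enzymes under 16 alternatives. The change of Akr1d1 stayed above 0 in each of its results, from 0.36 to 0.55 with single arrays or pairs left out, with a lowest limma adjusted p of 0.265 over all its settings. Filtering out genes under the yardstick removed Ch25h, Akr1d1, Cyp7a1 and Akr1c6, and filtering at the median level removed Cyp8b1 too, so these enzymes have no value there. The sign turned in 19 results, all of them of enzymes with a change near 0 or a wide spread. Quantile normalization gave 0.0050 for Cyp2c70 and 0.022 for Hsd3b7, and centring the arrays gave 0.0017 and 0.0076. With arrays or pairs left out, the changes ran from -0.23 to 0.054 for Cyp7a1, -0.38 to 0.00025 for Cyp8b1, -0.094 to 0.024 for Cyp27a1, -0.13 to 0.082 for Cyp39a1, -0.22 to 0.15 for Cyp2c70 and -0.12 to 0.11 for Hsd3b7, and the cause was not tested. Those of the other enzymes kept their sign, from -0.24 to -0.066 for Cyp7b1, 0.053 to 0.22 for Ch25h and 0.087 to 0.23 for Akr1c6, and the mean of its probe sets gave 0.069 for Ch25h. The replicate block, which pairs same-numbered arrays, changed no call among the enzymes or the listed genes, and gave 16 higher and 2 lower genes over all genes, against 11 and 0. Lower calls over all genes were 3 with a trended, robust variance and 1 with either filter on dim genes, and the same 3 settings each gave 1 lower call in the pathway lists, against 0, which was Nr1h4 (limma adjusted p = 0.0171 with that variance, 0.0455 without genes under the yardstick and 0.0434 without those under the median). With arrays or pairs left out, higher calls ran from 2 to 5 and lower calls from 0 to 1, with fewer arrays in each fit, and higher calls in the pathway lists from 2 to 3. The count of enzymes above the yardstick was 7 at the 90th and 5 at the 99th percentile of the receptor genes, against 6, and 6 in the other settings. Signal near the array's background limits what can be said of Cyp7a1, Akr1c6, Akr1d1 and Ch25h.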
